A study of Mus musculus with 12 samples.

Results

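The pore-forming subunits of voltage-gated calcium channels were followed through RNA sequencing of brain punches from C57BL/6 mice. The members were the 8 gene entries named Cacna1a, Cacna1b, Cacna1c, Cacna1d, Cacna1e, Cacna1g, Cacna1h and Cacna1i, chosen by name out of 54429 entries of the count table. The 12 libraries fall into 4 groups of 3, each a pairing of punched region with housing. The VTA libraries came from females, either mice isolated early in life (VTA_ESI) or group-housed mice (VTA_GH). The BLA libraries came from males, again early isolated (BLA_ESI) or group-housed (BLA_GH). The labels give the regions as these abbreviations, name the tissue only as cerebrum, and give neither the age of the mice nor the length of isolation. All groups share the strain, and no genetic change or drug is named for any of them. Region and sex cannot be told apart, because no VTA library is male and no BLA library is female. Nothing in the labels ties each library to an animal of its own, so the p-values describe spread among libraries that may be technical replicates.

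Each member encodes the large subunit that forms the calcium-selective pore and senses the membrane voltage, and the identity of that subunit sets the current type. Cacna1a (P/Q-type) and Cacna1b (N-type) carry the calcium that triggers transmitter release at presynaptic terminals, and Cacna1e carries the R-type current. Cacna1c and Cacna1d encode L-type channels of cell bodies and dendrites, which couple activity to gene transcription, and the Cacna1d channel opens near rest and takes part in the pacemaking of midbrain dopamine neurons. Cacna1g, Cacna1h and Cacna1i encode T-type channels, which open at low voltage and serve burst firing. The P/Q-, N-, R- and L-type channels are together called high-voltage-activated, and they work with auxiliary alpha2delta and beta subunits.

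The members are paralogs, so the sequences that they share decide whether reads could be assigned to the wrong gene. Between the annotated transcripts of the members (GENCODE M21, build GRCm38), the longest identical run over the 28 pairs had a median of 22 bases and ranged from 13 to 68 bases. The longest run lies in coding exons of the T-type genes Cacna1g (minus strand, chr11:94443187-94443254) and Cacna1i (plus strand, chr15:80369688-80369755). It is shown here with 16 bases of transcript on either side, in capitals where the transcripts are identical, and in each gene the printed stretch spans 2 exons.
Cacna1g: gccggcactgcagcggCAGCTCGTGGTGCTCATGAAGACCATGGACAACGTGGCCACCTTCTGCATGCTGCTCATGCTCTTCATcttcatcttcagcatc
Cacna1i: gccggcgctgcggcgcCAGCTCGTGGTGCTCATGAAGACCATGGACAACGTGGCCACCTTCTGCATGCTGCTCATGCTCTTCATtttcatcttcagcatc
Cacna1h (minus strand, chr17:25383183-25383232) and Cacna1i (plus strand, chr15:80378189-80378238) share a coding run of 50 bases, printed in the same way.
Cacna1h: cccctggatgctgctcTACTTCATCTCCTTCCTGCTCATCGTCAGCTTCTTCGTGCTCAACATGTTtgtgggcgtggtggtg
Cacna1i: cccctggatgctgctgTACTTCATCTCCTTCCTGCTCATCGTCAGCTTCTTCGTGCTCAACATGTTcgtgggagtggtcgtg
The L-type genes Cacna1c (minus strand, chr6:118654366-118654408) and Cacna1d (minus strand, chr14:30099154-30099196) share 43 coding bases.
Cacna1c: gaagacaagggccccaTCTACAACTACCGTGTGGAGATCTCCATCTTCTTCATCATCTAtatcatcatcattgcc
Cacna1d: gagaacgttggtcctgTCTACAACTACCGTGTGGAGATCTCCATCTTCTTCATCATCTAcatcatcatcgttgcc
Such stretches are a small part of each gene. Of the distinct 50-base windows in its transcripts, Cacna1i had 20 of 9951 (0.201%) in common with another gene, and the genes concerned were Cacna1g and Cacna1h. Cacna1g had 19 of 10466 such windows (0.182%), all in Cacna1i. Cacna1e had the most, 162 of 25490 (0.636%), and none of the genes that hold them is a member. Exons of Cacna1a, Cacna1d and Cacna1h overlap an exon of a gene on the opposite strand, by 435 bases (Gm16183), 589 bases (Chdh) and 158 bases (Tpsg1). Whether reads were counted by strand is not given in the sources used here. The counts of these 3 members may therefore have gained or lost reads over the shared bases.

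Total counts per library ranged from 28278708 to 69276892, and the count of a member in a library ranged from 1045 to 44961. All 8 members passed the filter on low counts in every comparison. Loci that collect ribosomal RNA took 18.6% to 41.8% of the counts in 3 BLA libraries (BLA_ESI_3, BLA_GH_1 and BLA_GH_2) and at most 1.57% in the other libraries. The punches matched their region labels in Slc6a3, the dopamine transporter, which lay between 231 and 521 CPM (the count relative to library size, with TMM factors over the 12 libraries) in VTA libraries and at 1.09 CPM or less in BLA libraries, where Foxa1, a transcription factor of dopamine neurons, was at 0. In the test of the regions described below, 9 of 10 dopamine neuron markers were called higher in VTA and 1 lower. Of all tested genes 24.1% were called higher and 23.7% lower. Slc17a7, the transporter of cortical and amygdalar glutamatergic neurons, lay between 2.89 and 232 CPM in VTA libraries and between 449 and 984 CPM in BLA libraries. VTA_ESI_3 stood apart. Its summed markers of cortical and basolateral glutamatergic neurons reached 498 CPM, against 117 to 167 CPM in the other isolated VTA libraries and 90.6 to 92.0 CPM in VTA_GH, and its choroid plexus markers reached 3480 CPM, against 46.7 and 276 CPM in the other isolated VTA libraries and 38.9 to 60.7 CPM in VTA_GH. Markers of thalamic and subcortical glutamatergic neurons summed to 844, 856 and 575 CPM in VTA_ESI and to 594, 625 and 567 CPM in VTA_GH. BLA_ESI_1 had the highest summed striatal markers of the BLA libraries (2445 CPM, against 614 to 1575 CPM in the other 5) and the lowest cortical and basolateral ones (815 CPM, against 1244 to 1700 CPM in the other 5).

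The VTA and BLA punches were compared first, over isolated and group-housed libraries together. Of the 8 members, 7 had lower levels in VTA than in BLA, and Cacna1e differed most, being 3.27-fold lower. Cacna1c and Cacna1a were 2.31-fold and 2.01-fold lower, and Cacna1h, Cacna1d, Cacna1b and Cacna1i were 1.75-fold to 1.59-fold lower. Cacna1g, a T-type gene, was the exception and did not pass the test. The comparison used edgeR's quasi-likelihood test on all 12 libraries, with Benjamini-Hochberg adjustment over 25009 genes and a threshold of 0.05. It called 7 of the 8 members lower in VTA, where 23.7% of all tested genes were called lower and 47.7% were called in either direction. In 7 of 8 members every VTA library lay below every BLA library, which held for 12.9% of all tested genes. In punches, fewer cells of a type and less RNA per cell cannot be told apart.

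**Figure D1:**
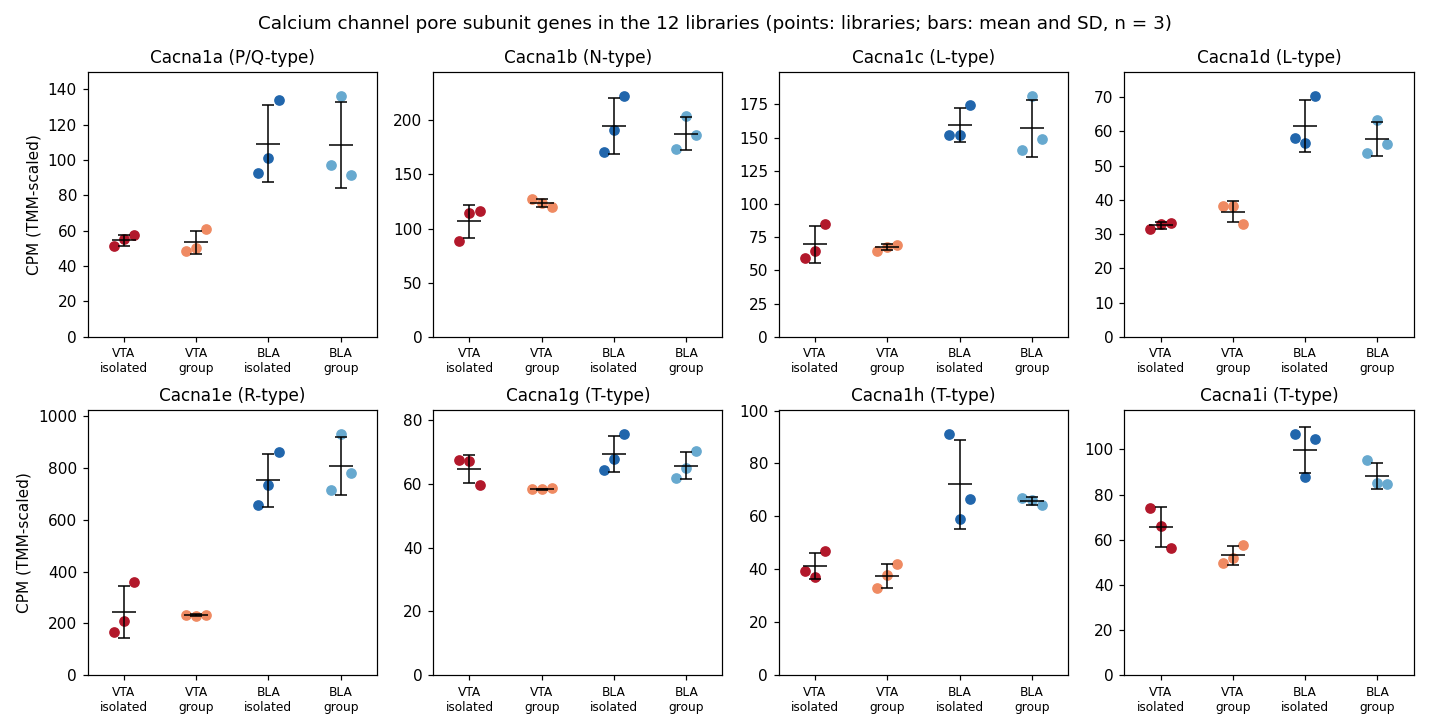
Level of each pore subunit gene in the 12 libraries, in TMM-scaled CPM on axes that start at 0, with a point per library and the mean and SD of each group of 3. In every panel except that of Cacna1g the 6 VTA points lie below the 6 BLA points, and VTA_ESI_3 (357.8 CPM) sits far above the other VTA points for Cacna1e.

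Cacna1a (chr8:84388440-84640246), the P/Q-type subunit, had 51.5, 55.1 and 57.7 CPM in VTA_ESI and 48.7, 50.4 and 61.0 CPM in VTA_GH. In the BLA it had 92.9, 101 and 134 CPM in BLA_ESI and 97.3, 136 and 91.6 CPM in BLA_GH. No VTA library reached the lowest BLA library, and the highest BLA values were in BLA_ESI_3 and BLA_GH_2, which are also rich in ribosomal RNA, whose part in them was not tested. The log2 fold change of VTA over BLA was -1.01 (SE 0.11, edgeR, Benjamini-Hochberg adjusted p = 8.07e-06). Cacna1b (chr2:24603887-24763152), the N-type subunit, had 88.8, 115 and 116 CPM in VTA_ESI and 127, 124 and 120 CPM in VTA_GH. It had 171, 191 and 222 CPM in BLA_ESI and 173, 204 and 186 CPM in BLA_GH. The regions were well apart, and VTA_ESI_1 was the lowest library of all for this gene. Between the regions Cacna1b had a log2 fold change (VTA over BLA) of -0.74 (SE 0.084, edgeR, Benjamini-Hochberg adjusted p = 4.44e-06).

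Cacna1e (chr1:154390731-154884501), the R-type subunit, had 167, 209 and 358 CPM in VTA_ESI and 233, 229 and 233 CPM in VTA_GH. It had 658, 733 and 864 CPM in BLA_ESI and 715, 931 and 779 CPM in BLA_GH. Its VTA values were tight in the group-housed libraries and wide in the isolated ones, where VTA_ESI_3, the library with the most cortical marker RNA, was the highest. For Cacna1e the log2 fold change of VTA over BLA was -1.71 (SE 0.17, edgeR, Benjamini-Hochberg adjusted p = 6.33e-06). The part of the cortical marker RNA in the spread of Cacna1e was not tested.

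Cacna1c (chr6:118587240-119196418), an L-type gene, had 59.1, 64.4 and 85.3 CPM in VTA_ESI and 64.9, 67.8 and 69.3 CPM in VTA_GH. It had 152, 152 and 174 CPM in BLA_ESI and 140, 181 and 149 CPM in BLA_GH. VTA_ESI_3 was again the highest VTA library, still far below the lowest BLA library. In Cacna1c the log2 fold change of VTA over BLA was -1.21 (SE 0.092, edgeR, Benjamini-Hochberg adjusted p = 1.24e-07). Cacna1d (chr14:30039939-30491455), the other L-type gene, had 31.4, 33.1 and 33.1 CPM in VTA_ESI and 38.3, 38.2 and 33.1 CPM in VTA_GH. It had 58.1, 56.5 and 70.3 CPM in BLA_ESI and 53.5, 63.3 and 56.2 CPM in BLA_GH. Its 6 VTA libraries differed little and stayed below all BLA libraries. Cacna1d had a log2 fold change of VTA over BLA of -0.79 (SE 0.073, edgeR, Benjamini-Hochberg adjusted p = 6.38e-07).

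Among the T-type genes, Cacna1g (chr11:94408391-94474198) had 67.4, 67.2 and 59.8 CPM in VTA_ESI and 58.4, 58.3 and 58.6 CPM in VTA_GH. It had 64.5, 67.9 and 75.6 CPM in BLA_ESI and 61.8, 65.03 and 70.3 CPM in BLA_GH. The regions overlapped, and the 3 group-housed VTA libraries were almost equal. The log2 fold change of VTA over BLA was -0.13 (95% interval -0.27 to -0.0027, edgeR, Benjamini-Hochberg adjusted p = 0.0875). Cacna1h (chr17:25374285-25433783) had 39.4, 37.3 and 46.8 CPM in VTA_ESI and 32.9, 37.8 and 42.1 CPM in VTA_GH. It had 91.1, 58.9 and 66.4 CPM in BLA_ESI and 66.9, 66.3 and 64.1 CPM in BLA_GH. The highest value was in BLA_ESI_1, the library with the most striatal marker RNA, whose part in it was not tested. The log2 fold change of VTA over BLA was -0.81 (SE 0.10, edgeR, Benjamini-Hochberg adjusted p = 1.4e-05). Cacna1i (chr15:80287238-80398279) had 74.1, 66.2 and 56.3 CPM in VTA_ESI and 49.4, 51.8 and 57.7 CPM in VTA_GH. It had 107, 88.0 and 105 CPM in BLA_ESI and 95.1, 85.0 and 84.8 CPM in BLA_GH. VTA_ESI_1, the lowest library for Cacna1b and Cacna1e, was the highest VTA library for Cacna1i. The log2 fold change of VTA over BLA was -0.67 (SE 0.079, edgeR, Benjamini-Hochberg adjusted p = 5.82e-06). VTA_ESI_1 and VTA_ESI_2, highest in VTA for Cacna1g and Cacna1i, also had the most thalamic and subcortical marker RNA, whose part was not tested.

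The regional difference held its direction in each housing condition. In the fit of all 12 libraries, a contrast of the isolated groups called 7 members lower in VTA. A contrast of the group-housed groups in that fit also called 7 lower. The count was also 7 without the 3 libraries rich in ribosomal RNA, and 7 without isolated VTA libraries 1 and 3. Its size depended on what the libraries were scaled to. The summed level of 12 pan-neuronal markers was 6383 to 7452 CPM in VTA_ESI and 5498 to 6377 CPM in VTA_GH, against 7533 to 9606 CPM in BLA_ESI and 9013 to 10210 CPM in BLA_GH. The 12 markers did not move together, with log2 fold changes of VTA over BLA from -1.78 to 0.36 (median -0.27). Of them 6 were called lower and 1 higher, where 23.7% and 24.1% of all tested genes were. A sum weighs the abundant markers most. Myelin markers summed to 6358 to 12560 CPM in VTA libraries and 2561 to 5164 CPM in BLA libraries. With libraries scaled to the pan-neuronal markers, the median log2 fold change of all tested genes was 0.53, against 0.021 under TMM scaling. That scaling called 13581 genes higher in VTA and 2167 lower, against 6018 higher and 5920 lower under TMM scaling. Relative to these markers 5 members remained called lower in VTA, Cacna1g was called higher (log2 fold change 0.38, edgeR, Benjamini-Hochberg adjusted p = 0.000915), and Cacna1b and Cacna1i lost the call (edgeR, Benjamini-Hochberg adjusted p = 0.0548 and 0.181). With total counts in place of TMM factors the median moved to 0.44, 10577 genes were called higher and 2145 lower, 5 members were called lower, and Cacna1g stood at 0.29 (edgeR, Benjamini-Hochberg adjusted p = 0.1). The 5 called under every scaling tried were Cacna1a, Cacna1c, Cacna1d, Cacna1e and Cacna1h, and both added scalings were chosen after the data were seen.

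Levels of different genes were compared per kilobase of merged exons, since the members differ in transcript length. In VTA, Cacna1b led with 11.6 ± 1.38 CPM per kb (SD, n = 6), followed by Cacna1e with 9.44 ± 2.53, Cacna1g with 6.08 ± 0.44 and Cacna1i with 6.01 ± 0.94 CPM per kb. Cacna1a (4.74 ± 0.41), Cacna1h (4.03 ± 0.48), Cacna1c (3.23 ± 0.42) and Cacna1d (2.74 ± 0.23 CPM per kb) came after them. In VTA every neighbour in this order overlapped the next over the 6 libraries. In BLA, Cacna1e led with 30.9 ± 3.998 CPM per kb, followed by Cacna1b with 19.2 ± 1.96 CPM per kb. Cacna1i (9.54 ± 0.99), Cacna1a (9.54 ± 1.81), Cacna1c (7.46 ± 0.75), Cacna1h (7.07 ± 1.15) and Cacna1g (6.66 ± 0.48 CPM per kb) lay together behind, and Cacna1d was last with 4.73 ± 0.49 CPM per kb. In BLA the neighbours were separate only between Cacna1e and Cacna1b, between Cacna1b and Cacna1i, and between Cacna1g and Cacna1d. The lead in VTA depended on the length used: per kilobase of the longest annotated transcript Cacna1e came first there, at 15.96 CPM per kb against 11.8 CPM per kb for Cacna1b.

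**Figure D2:**
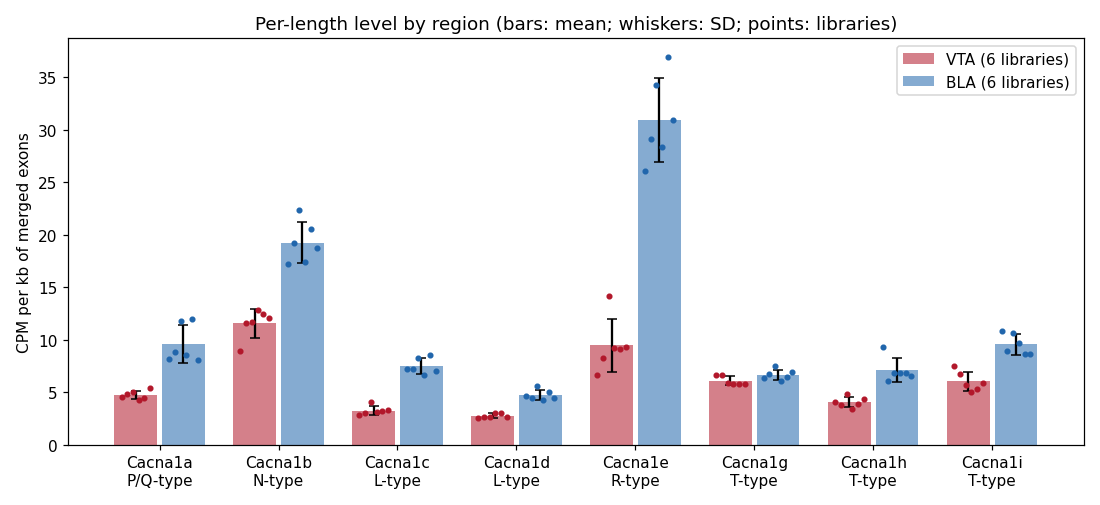
Per-length level of each member in VTA (left bar of each pair, 6 libraries) and BLA (right bar, 6 libraries), in CPM per kb of merged exons, with bars at the mean, whiskers for the SD and points for libraries. Cacna1e leads in BLA at 30.9 CPM per kb, while in VTA it lies with Cacna1b at the top, and only Cacna1g has nearly the same height in both regions.

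The summed per-length level of the 8 members was 48.3 ± 5.27 CPM per kb in VTA_ESI and 47.4 ± 1.01 in VTA_GH, against 95.7 ± 9.79 in BLA_ESI and 94.6 ± 8.97 CPM per kb in BLA_GH (SD, n = 3 each). A member's share of this sum does not depend on how libraries are scaled. The 3 T-type genes made up 33.9% ± 4.44 of it in VTA and 24.6% ± 2.91 in BLA (SD, n = 6 each), with ranges of 30.4% to 41.8% and 20.8% to 29.6%. The share of Cacna1g was 12.8% ± 1.57 in VTA and 7.03% ± 0.51 in BLA, and that of Cacna1e was 19.5% ± 3.72 in VTA and 32.4% ± 2.07 in BLA. Neither pair of ranges overlapped. The L-type share was 12.5% ± 0.55 in VTA and 12.8% ± 0.27 in BLA, and its ranges overlapped. These shares were not tested, and they depend on the length used. Per kilobase of the longest annotated transcript the T-type genes made up 29.8% in VTA and 20.2% in BLA. Cacna1e then made up 25.6% and 40.2%, and its ranges again did not overlap. The remaining pore subunit genes of the family were scarce, Cacna1f at 0.433 to 1.12 CPM and Cacna1s at 0.200 to 1.20 CPM over the 12 libraries. Cacna1s was called lower in VTA than in BLA (log2 fold change -1.03, edgeR, Benjamini-Hochberg adjusted p = 0.00465). It lost the call with total counts and with pan-neuronal scaling. Cacna1f did not pass (-0.20).

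The isolation comparison in VTA asked which genes differed between isolated and group-housed females. None of the 8 members passed the test (edgeR, 6 libraries, Benjamini-Hochberg adjustment over 24082 genes), and across all genes 1 was called (0.00415%). Before adjustment 3 members had p below 0.05, where 18.3% of all tested genes did. Cacna1b was lower in isolated VTA in all 3 libraries, at 107 ± 15.4 CPM in VTA_ESI and 124 ± 3.73 CPM in VTA_GH (SD, n = 3 each). Its log2 fold change was -0.27 (95% interval -0.52 to -0.014, edgeR, Benjamini-Hochberg adjusted p = 0.264). Without VTA_ESI_1 it was -0.14. Cacna1d averaged 32.5 ± 0.99 CPM in VTA_ESI and 36.5 ± 2.99 CPM in VTA_GH. Its log2 fold change was -0.22 (95% interval -0.42 to -0.023, edgeR, Benjamini-Hochberg adjusted p = 0.256), and the groups touched at 33.1 CPM. Cacna1i averaged 65.5 ± 8.93 CPM in VTA_ESI and 53.0 ± 4.25 CPM in VTA_GH. Its log2 fold change was 0.25 (95% interval 0.0009 to 0.50, edgeR, Benjamini-Hochberg adjusted p = 0.272), and the groups overlapped through VTA_ESI_3.

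For the other 5 members the log2 fold change of isolated over group-housed VTA lay between -0.019 (Cacna1a) and 0.094 (Cacna1g). The intervals show how much the data leave room for. That of Cacna1g ran from -0.081 to 0.27, although its isolated libraries all lay above the group-housed ones, a separation seen in 17.4% of all tested genes. That of Cacna1a ran from -0.25 to 0.21, that of Cacna1c from -0.30 to 0.28 and that of Cacna1h from -0.18 to 0.33. Cacna1e had the widest interval, -0.65 to 0.69, around a log2 fold change of 0.020. Without VTA_ESI_3 its log2 fold change was -0.35 and without VTA_ESI_1 it was 0.24, neither of them called. Separate groups were seen for Cacna1b (lower in isolated) and Cacna1g (higher), where 29.1% of all tested genes were separate in either direction. With TMM factors from the 6 VTA libraries alone, the isolated libraries were separate and lower for Cacna1b (at most 134.5 CPM, against at least 142.3 CPM in VTA_GH) and Cacna1d (at most 38.8 CPM, against at least 39.3 CPM in VTA_GH), and those of Cacna1g overlapped. The shares of all tested genes given above rest on factors over the 12 libraries. No such share was drawn up for the 6-library factors, so these separations have no background beside them. With DESeq2 and with limma voom 0 members were called, with Benjamini-Hochberg adjusted p of 0.241 and 0.0841 for Cacna1b.

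**Figure D3:**
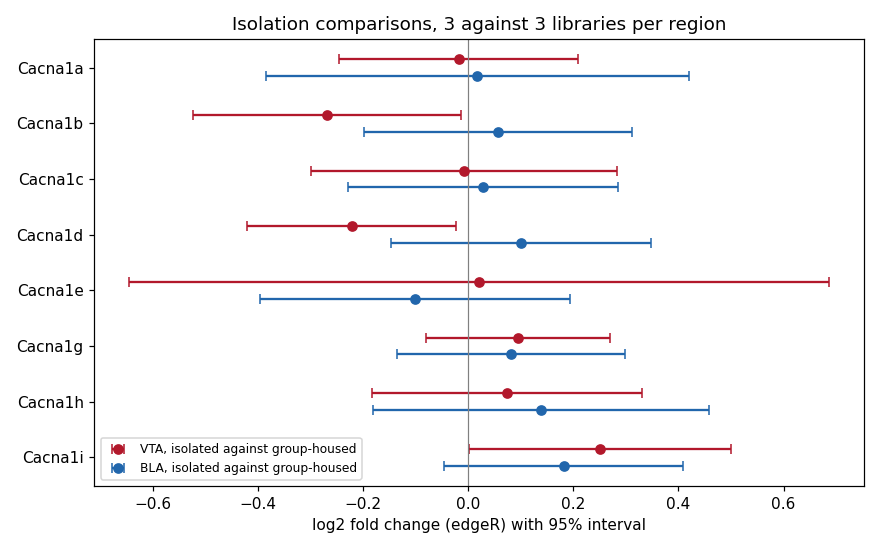
Log2 fold change of isolated over group-housed libraries for each member, in VTA (upper point of each pair) and BLA (lower point), with the 95% interval from edgeR for 3 against 3 libraries. In VTA the intervals of Cacna1b and Cacna1d lie below 0 and that of Cacna1i starts at 0.0009, all before adjustment, and in BLA every interval spans 0.

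The isolation comparison in BLA asked the same of males. None of the 8 members passed the test (edgeR, 6 libraries, Benjamini-Hochberg adjustment over 22110 genes), and of all genes 0 were called (0.0%), with 439 (1.99%) below an unadjusted p of 0.05. DESeq2 called 6 genes and limma voom 0, none of them a member. No member had an unadjusted p below 0.05, and in all 8 the isolated and group-housed libraries overlapped, where 7.11% of all tested genes had separate groups. Cacna1i had the log2 fold change farthest from 0, at 0.18 (95% interval -0.047 to 0.41), with 99.8 ± 10.3 CPM in BLA_ESI and 88.3 ± 5.90 CPM in BLA_GH. Cacna1h stood at 0.14 (95% interval -0.18 to 0.46), and its mean in BLA_ESI rests on the high value of BLA_ESI_1. Cacna1d stood at 0.10 (95% interval -0.15 to 0.35) and Cacna1g at 0.081 (95% interval -0.14 to 0.30). Cacna1b (0.057), Cacna1c (0.028) and Cacna1a (0.017) lay closer to 0, and Cacna1a had an interval of -0.39 to 0.42. Cacna1e was the only member with a log2 fold change below 0, at -0.10 (95% interval -0.40 to 0.19).

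The difference between the regional responses, that of BLA minus that of VTA, was tested on all 12 libraries. None of the 8 members passed (edgeR, Benjamini-Hochberg adjustment over 25009 genes), of all genes 0 were called (0.0%), and 3729 genes (14.9%) but no member had an unadjusted p below 0.05. DESeq2 called 142 genes and limma voom 0, none of them a member. The members farthest from 0 were Cacna1b, with a difference of 0.27 on the log2 scale (95% interval -0.087 to 0.62), and Cacna1d, with 0.26 (95% interval -0.046 to 0.57). The difference for Cacna1e was -0.18 with an interval of -0.89 to 0.52. A p that misses the threshold does not show that the responses were alike.

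The isolated VTA libraries also differed from one another in which members were high. In VTA_ESI_1 Cacna1e deviated from the mean of its region by -0.47 on the log2 scale and Cacna1b by -0.36, while Cacna1i deviated by 0.34. In VTA_ESI_3 Cacna1e deviated by 0.63, Cacna1c and Cacna1h were also high, and Cacna1i deviated by -0.060. Over the 12 libraries such deviations had r = 0.92 between Cacna1c and Cacna1e and r = 0.79 between Cacna1b and Cacna1d. They had r = -0.60 between Cacna1b and Cacna1i. These correlations describe 12 libraries that share their scaling, and they are given without a test.

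**Figure D4:**
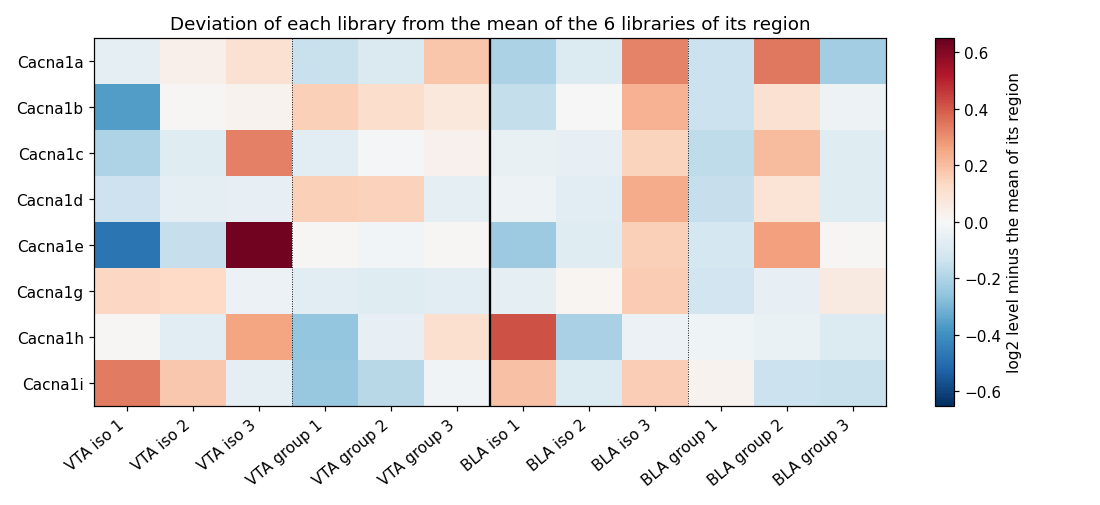
Deviation of each member in each library from the mean of the 6 libraries of its region, on the log2 scale, with red above and blue below the mean and isolated libraries left of group-housed ones within each region. The strongest colours are Cacna1e in VTA isolated libraries 1 (-0.47) and 3 (0.63), and Cacna1h in BLA isolated library 1.

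The auxiliary subunits moved partly with the pores between regions. Of 10 tested, 5 were called lower in VTA and 1 higher, where 23.7% of all tested genes were called lower and 47.7% in either direction. Their median log2 fold change was -1.13, beside 0.021 over all tested genes and -0.80 over the 8 members. Cacnb3, a beta subunit, which helps bring the pore to the membrane, had 52.9, 60.2 and 93.5 CPM in VTA_ESI and 49.6, 57.0 and 48.1 CPM in VTA_GH. It had 160, 169 and 192 CPM in BLA_ESI and 167, 184 and 182 CPM in BLA_GH, with a log2 fold change of VTA over BLA of -1.56 (edgeR, Benjamini-Hochberg adjusted p = 3.73e-07). The beta subunits Cacnb1 (-1.39) and Cacnb4 (-0.86) were called lower too, as was Cacna2d3 (-1.40), an alpha2delta subunit. Cacna2d4 (0.64), an alpha2delta subunit at 3.40 to 5.61 CPM in VTA and 2.58 to 3.996 CPM in BLA, was called higher. Cacng6 was called lower (-3.83) at under 2.4 CPM everywhere. Cacnb2 (-0.11), Cacna2d1 (-0.30), Cacna2d2 (0.48) and Cacng1 (-1.54, under 0.4 CPM) did not pass. With total counts and with pan-neuronal scaling 5 auxiliary subunits were still called lower, where 8.58% and 8.66% of all tested genes were. Of the auxiliary subunits 2 and 3 were called higher, where 42.3% and 54.3% of all tested genes were. Among these were Cacna2d2 under both scalings and Cacnb2 under the second (log2 fold change 0.40, beside a median of 0.53 over all tested genes). Cacna2d3, Cacna2d4 and the 4 that did not pass were named after their values were seen.

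**Figure D5:**
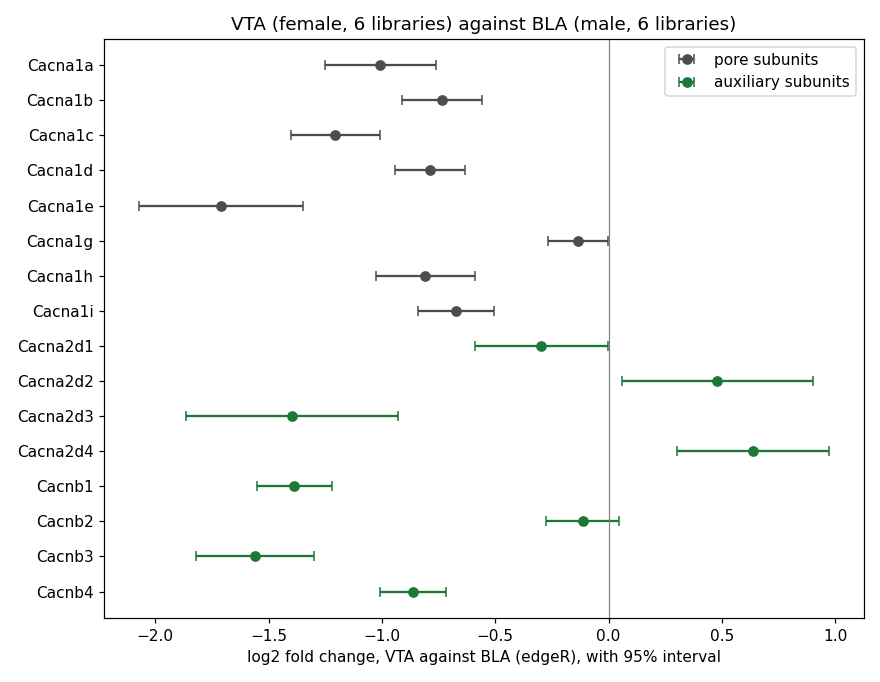
Log2 fold change of VTA over BLA with its 95% interval for the 8 pore subunits and, below them, the alpha2delta and beta subunits. Except for Cacna1g, the pore subunits lie between -0.67 and -1.71. Cacna1g is near 0 here (-0.13). It stands at 0.38 when scaled to pan-neuronal markers, where the median of all tested genes is 0.53.

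Genes that act beside the channels or downstream of them were also examined, and the same shares of all tested genes (23.7% lower, 47.7% in either direction) stand beside their counts. Of 19 channel partners 14 were called lower and 3 higher (median log2 fold change -0.91). Examples were the active zone scaffolds Erc2 (-1.46) and Rims1 (-1.46), the calmodulin gene Calm2 (-0.91) and Cabp1 (-1.28), a calcium sensor that binds these channels. Of 24 calcium effectors 18 were called lower and 4 higher (median -1.07). The calcium-dependent kinases Camkk2 (-2.18) and Camk2b (-1.24), the calcineurin subunit Ppp3r1 (-1.24) and the ryanodine receptor Ryr2 (-0.91) were among the lower ones. Of 13 calcium clearance genes 9 were called lower and 2 higher (median -0.42). The plasma membrane calcium pumps Atp2b1 (-2.08) and Atp2b2 (-1.51) and the exchanger Slc24a2 (-0.90) were lower, and the sodium-calcium exchanger Slc8a3 (0.95) was higher. These counts depended on the scaling. With pan-neuronal scaling 8.66% of all tested genes were called lower and 54.3% higher. There 10 channel partners were called lower and 5 higher, 14 effectors lower and 6 higher, and 6 clearance genes lower and 4 higher. With total counts 8.58% of all tested genes were called lower and 42.3% higher. The counts of the 3 lists were 10 lower and 3 higher, 14 lower and 5 higher, and 6 lower and 2 higher, in the same order. The median of the clearance genes was then 0.0064, and 0.095 with pan-neuronal scaling, against -0.42 under TMM scaling. The genes named here from these 3 lists had the smallest p of their list under TMM scaling, and they kept their direction and their call under both scalings. Other genes lost the call, as the counts show. Calm3 was called lower under TMM scaling (-0.52) but not with total counts (-0.093) or pan-neuronal scaling (-0.0088).

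In the isolation comparisons no gene of these lists passed the test in either region. In VTA the medians were 0.10 over 8 tested auxiliary subunits, 0.26 over 19 channel partners, 0.27 over 24 effectors and 0.24 over 13 clearance genes, beside -0.0013 over all tested genes and 0.0058 over the 8 members. The scarce pore subunit genes Cacna1f (-0.72) and Cacna1s (-0.53) had log2 fold changes below 0, and neither passed. Cacnb4, the auxiliary subunit with the smallest p, had 145, 122 and 155 CPM in VTA_ESI and 100, 103 and 103 CPM in VTA_GH. The groups were separate, with a log2 fold change of 0.40 (SE 0.085, edgeR, Benjamini-Hochberg adjusted p = 0.236). Calm3 (0.33) and Calm2 (0.33), which encode calmodulin, and the calcineurin subunits Ppp3cb (0.45) and Ppp3r1 (0.58) also had separate groups without passing. The isolated libraries were separate and higher in 17.4% of all tested genes. They were so in 1 of 8 auxiliary subunits, 5 of 19 partners, 9 of 24 effectors and 1 of 13 clearance genes. The genes named here were picked by smallest p, which favours separate groups. With pan-neuronal scaling, where the median of all tested genes was -0.22, the medians were -0.11 for auxiliary subunits, 0.034 for partners, 0.054 for effectors and 0.034 for clearance genes. Some marker lists had log2 fold changes mostly above 0 in the same comparison, with medians of 2.35 for choroid plexus (10 of 10 genes above 0), 1.66 for cortical and basolateral neurons (9 of 9), 0.51 for striatal neurons (8 of 10), 0.42 for myelin (6 of 6), 0.29 for microglia (5 of 5) and 0.14 for pan-neuronal markers (12 of 12). The remaining lists had mixed signs. Their medians were 0.0068 for dopamine neurons (5 of 10 above 0) and 0.066 for thalamic and subcortical neurons (3 of 6). Astrocyte markers had 0.046 (3 of 5) and endothelial markers -0.019 (2 of 4). No marker passed the test, and the part of these markers in the values above was not tested. In BLA the medians of the 4 lists lay between -0.053 (channel partners) and 0.037 (auxiliary subunits).

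The genes whose levels followed each member most closely over the 12 libraries were sought among 16657 genes with a mean of at least 1 CPM. Most of that likeness is the difference between the regions, which the 12 points share with their depth and scaling. Cacna1e was most like Rimbp2 (Pearson r = 0.99), a presynaptic protein that binds calcium channels, and Shisa7 (0.99), an auxiliary protein of transmitter receptors. Cacna1c was most like Cacna1e (0.99) and Tanc2 (0.99). Cacna1a was most like Cherp and Hectd4 (0.99 each), Cacna1b most like Fyb2 and Dcx (0.98 each), and Cacna1d most like Phka2 and Pogz (0.98 each). For Cacna1h the genes were Inf2 (0.98) and Slc25a37 (0.97), and for Cacna1i they were Gm10010 (0.97) and Znrf1 (0.96). Cacna1g had no such close match, the highest being Id2 (0.93), a transcriptional inhibitor, and Gm14066 (0.89).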

How the data were processed

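RNA of 12 punch libraries was extracted with Trizol and made into stranded, ribosomal-RNA-depleted libraries from 1 ug of RNA, per the labels' protocols. The deposited values are raw read counts per gene, made with HTSeq, TopHat2 and cutadapt on mm10 per the submitters' processing notes. Their versions, the annotation and the strand setting were not given in the sources used here. Groups came from the titles and sex from the design text. The main test was the robust quasi-likelihood F test of edgeR 4.0.16 (R 4.3.3) with TMM factors, after filterByExpr with a minimum count of 10 and a minimum total of 15, with Benjamini-Hochberg adjustment over all genes tested and a threshold of 0.05. The isolation comparisons used the 6 libraries of a region with their own TMM factors, so their fold changes can differ slightly from ratios of the printed CPM, which use factors over 12 libraries. SE is the log2 fold change divided by the square root of F, and intervals are 95% intervals. Per-length levels and sequences used GENCODE M21 on GRCm38, the assembly that mm10 denotes. The per-sample tables were used, and they differed from the table of the whole series at 2 entries, none of them a member.

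Named genes were all members, Cacna1f and Cacna1s, up to 4 genes per list and comparison by smallest p, and the 2 most alike genes per member by Pearson r of log2 CPM (prior count 2). A gene that this rule names is not reported here. Members and lists were chosen with earlier results of these data known. Scripts were tested on simulated data. Alternatives were DESeq2 1.42.0, limma 3.58.1 (voom with quality weights), RLE factors, other filters, a replicate block, an adjusted p of 0.1, removal of ribosomal RNA loci, fits with libraries left out, a fit of all 12 libraries and other lengths. Scaling to pan-neuronal markers and to total counts was added after the data were seen. Figures were drawn with matplotlib 3.10.9.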

Additional observations from a re-analysis of the deposited data

How the results depend on the processing

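Alternative runs that kept at least 2 libraries in each group called 0 members in VTA isolation, BLA isolation and their difference. Those runs called 7 members lower in VTA than in BLA. The exceptions were an adjusted p of 0.1 (8), total counts (5 lower) and pan-neuronal scaling (6 called, 5 lower and Cacna1g higher). Without the 3 libraries rich in ribosomal RNA, BLA_GH kept 1 library. Without isolated VTA libraries 1 and 3, VTA_ESI kept 1. Only effect sizes are given from those fits for the isolation comparisons. Under total counts and pan-neuronal scaling the VTA over BLA log2 fold changes were 0.29 and 0.38 for Cacna1g, -0.30 and -0.21 for Cacna1b, and -0.24 and -0.17 for Cacna1i. The medians over all tested genes under these scalings were 0.44 and 0.53. The number of all genes called moved with the setting. In VTA isolation it was 485 with DESeq2, 2 with voom, 17 without a filter, and 0 with the replicate block, with total counts and with pan-neuronal scaling. Leaving out a library in turn gave 0 to 1200, the highest without VTA_ESI_2. In BLA isolation it was 6 with DESeq2, 6 with total counts and 8 without a filter, and leaving out a library gave 0 to 4. In the difference it was 142 with DESeq2, 13 with total counts, 1 at an adjusted p of 0.1 and 1 without a filter, and leaving out a library gave 0 to 487, the highest without VTA_ESI_2.

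Uncalled log2 fold changes near 0 changed sign. Total counts and pan-neuronal scaling shift all genes of a comparison together. The median over all tested genes was 0.31 and 0.13 under them in BLA isolation (0.0028 under TMM), -0.11 and -0.22 in VTA isolation (-0.0013 under TMM), and 0.42 and 0.34 in the difference (-0.059 under TMM), so the member values under them are to be read against these medians. In BLA isolation, Cacna1b was -0.043 and Cacna1g -0.087 without the libraries rich in ribosomal RNA, and Cacna1e was 0.22 with total counts and 0.022 with pan-neuronal scaling. In VTA isolation, total counts gave -0.10 for Cacna1e, -0.014 for Cacna1g and -0.039 for Cacna1h, and pan-neuronal scaling gave -0.21, -0.12 and -0.14. Cacna1e was -0.23 with voom, and without isolated libraries 1 and 3 Cacna1e was -0.17, Cacna1h -0.037 and Cacna1a 0.020. The fit of all 12 libraries gave 0.037 for Cacna1a and 0.048 for Cacna1c. In the difference, total counts gave 0.49, 0.48, 0.32, 0.39 and 0.35 for Cacna1a, Cacna1c, Cacna1e, Cacna1g and Cacna1i, and pan-neuronal scaling gave 0.37, 0.39, 0.23, 0.32 and 0.27. Voom gave 0.068 for Cacna1a, 0.14 for Cacna1c, 0.16 for Cacna1e and -0.11 for Cacna1h. Removal of ribosomal RNA loci gave 0.0046 for Cacna1a and 0.0053 for Cacna1c, and leaving out the libraries rich in it gave 0.11 and 0.048. Without isolated VTA libraries 1 and 3 Cacna1c was 0.084 and Cacna1e 0.041. The causes of the sign changes under the other settings were not tested.

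Leaving out a library in turn gave, in BLA isolation, -0.16 to 0.21 for Cacna1a, -0.054 to 0.14 for Cacna1b, -0.051 to 0.14 for Cacna1c, -0.0094 to 0.17 for Cacna1d, -0.22 to 0.0099 for Cacna1e and -0.068 to 0.27 for Cacna1h. In VTA isolation it gave -0.081 to 0.077 for Cacna1a, -0.17 to 0.11 for Cacna1c, -0.35 to 0.24 for Cacna1e and -0.019 to 0.15 for Cacna1h. In the difference it gave -0.19 to 0.20 for Cacna1a, -0.13 to 0.15 for Cacna1c, -0.39 to 0.20 for Cacna1e and -0.20 to 0.13 for Cacna1h. With the replicate block 7 members were called between regions and Cacna1e in VTA isolation was -0.056. Same-numbered libraries showed little shared deviation (correlations of deviations from -0.058 to 0.17 within regions). Such correlations cannot show whether the numbers pair the libraries.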
